A study of Mus musculus with 6 samples.

Results

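The solvent comparison of this study set 3T3L1 cells differentiated with dimethyl sulphoxide (DMSO) against 3T3L1 cells differentiated with no addition. It used 4 of the study's 6 libraries, 2 of untreated cells and 2 of DMSO-treated cells, and every gene with a normalized value of at least 1 in at least 2 of those 4 libraries. That rule kept 22841 of the 53342 genes in the deposited table, and 13175 of them had a mean of at least 20. 3T3L1 is a mouse line of fibroblast-like cells that turns into fat cells under hormones. Per the labels, all groups were grown in medium with 10% foetal bovine serum, were induced 2 days after confluence with insulin at 1 µg/ml, IBMX at 0.5 mM and dexamethasone at 1 µM for 2 days, and were then kept on insulin at 1 µg/ml until lipid droplets had formed. The untreated cells had only these hormones, and the DMSO cells had DMSO besides; the other 2 libraries came from cells given LTK-14A, which the labels call a butyrylation inhibitor. How much DMSO was used, and when, is not given in the sources used here. Whether the numbered samples were grown as separate cultures is not in the labels, and p-values thus cover only the spread between these samples, which may be technical.

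DMSO is the usual carrier for compounds that do not dissolve in water, and a vehicle control shows what the carrier does by itself. It is a small sulphoxide that crosses membranes; at high doses it is known to change differentiation, stress and osmotic responses in cultured cells. In adipocyte formation, IBMX raises cyclic AMP, dexamethasone acts on the glucocorticoid receptor, and insulin drives glucose uptake and the making of fat, with PPARγ and C/EBPα as the central transcription factors.

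The values are normalized read counts, recovered from the deposited scale, and all differences are of log2(value + 1). The 4 libraries had summed normalized values of 6122690 to 7091010. The low values in each library fell on steps of about 1.19 and 1.11 in the untreated libraries and 2.15 and 2.26 in the DMSO libraries, and the totals were 5340799 and 6385419 steps in untreated cells and 2854133 and 2807716 in DMSO cells. A single step thus counted for more in the DMSO libraries, and they had fewer steps. The ribosomal RNA loci, Gm26917 above all, took up 16.4% of untreated replicate 2, against 9.30% in untreated replicate 1 and 8.60% and 9.76% in the DMSO libraries. Fat cell markers were abundant in all 4 libraries: Adipoq, the hormone adiponectin, stood at 6587 and 4802 in untreated cells and at 5648 and 5364 with DMSO. The 12 macrophage markers summed to 130 to 167 per library and the 12 endothelial markers to 44.8 to 57.7, with 4 of each list at 0 in all 4 libraries.

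Most genes with a mean of at least 20 had values within 2-fold of each other with and without DMSO. By limma with Benjamini-Hochberg adjustment, 9 of 22841 genes passed an adjusted p of 0.05 (0.0394%), all higher with DMSO. Most of the 9 were at 0 in both untreated libraries, passed the filter only through DMSO and thus had to lie higher. At an unadjusted p under 0.05 there were 1401 of the 22841 genes, 719 higher and 682 lower, so 51.3% were higher. Among the 13175 genes with a mean of at least 20 there were 618. A share of about 0.05 would fall under that bound if no gene differed. With a scaling that leaves out ribosomal and small RNA loci, 62.2% of the genes under it were higher. A p that misses the threshold does not show that 2 groups are alike, so the 95% interval of each difference was also read. It lay wholly within 2-fold in either direction for 10059 genes, or 44.0% of all tested genes. Among those with a mean of at least 20 it did so for 10021, or 76.1%. Of the genes with a mean of 100 to 1000 it did so for 94.4%, of those from 20 to 100 for 45.3%, and of those under 5 for none. Below a mean of 20, these libraries could seldom place a difference within 2-fold.

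Untreated replicate 1 lay as near to each DMSO library as the DMSO libraries lay to each other. Over the 13175 genes that averaged 20 or more, the log2 difference between DMSO replicate 1 and DMSO replicate 2 had an SD of 0.364. The SD was 0.382 between untreated replicate 1 and DMSO replicate 1, and 0.365 between untreated replicate 1 and DMSO replicate 2. The 3 pairs that include untreated replicate 2 were wider, at 0.520 against untreated replicate 1, 0.602 against DMSO replicate 1 and 0.536 against DMSO replicate 2. Untreated replicate 1 was within 2-fold of DMSO replicate 1 for 98.6% of these genes, and untreated replicate 2 for 93.1%. Across genes, which are not independent replicates, Pearson's r was 0.977 and 0.979 between untreated replicate 1 and the DMSO libraries, 0.979 between the DMSO libraries and 0.960 between the untreated libraries.

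**Figure D1:**
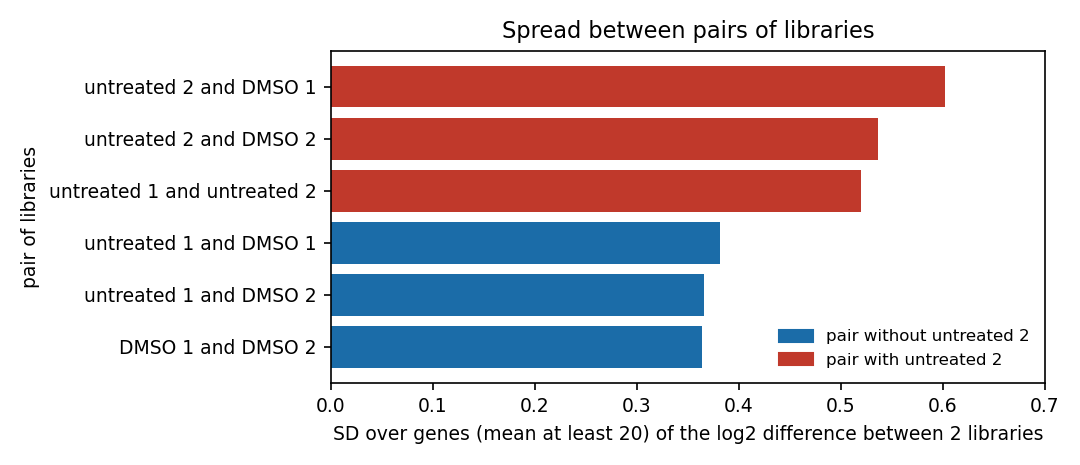
SD of the log2 difference (horizontal axis, from 0) between each pair of the 4 libraries (vertical axis), over the 13175 genes averaging 20 or more. The 3 pairs without untreated replicate 2 lie between 0.364 and 0.382, and the 3 pairs with it between 0.520 and 0.602.

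The distance of untreated replicate 2 went with base composition. The difference between the untreated libraries correlated with the GC content of the exons at r = 0.546 across 13158 genes, while that between the DMSO libraries did so at 0.190 and that between the LTK-14A libraries at -0.007; these values describe the libraries and have no test. When the protein-coding genes averaging 20 or more were split into 6 groups by GC content, the mean of the DMSO libraries lay above untreated replicate 2 by a median log2 difference of 0.42 in the group of 31.0% to 43.0% GC. It lay below that library in the group of 56.2% to 74.7% GC, by a median of -0.37. Against untreated replicate 1 the same 6 medians ran only from -0.04 to -0.01. Genes whose DMSO libraries both lay above both untreated libraries were 25.6% of the lowest GC group and 3.89% of the highest, and genes with both DMSO libraries below were 4.55% and 31.4%. Over all tested genes 16.9% lay higher in this way and 18.1% lower, and over genes averaging 20 or more the shares were 14.8% and 19.8%, so a list of GC-rich or GC-poor genes has to be read against its own composition.

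**Figure D2:**
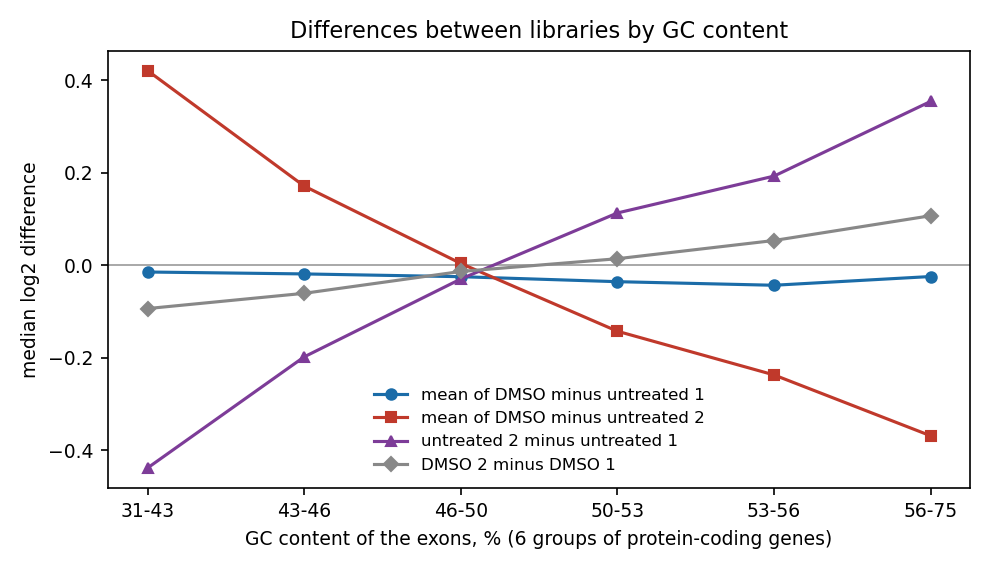
Median log2 difference (vertical axis) between libraries for 6 groups of protein-coding genes ordered by the GC content of their exons in % (horizontal axis). The mean of DMSO against untreated replicate 1 stays between -0.04 and -0.01, while against untreated replicate 2 it goes from 0.42 to -0.37.

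Coding stretches of 60 bases from 4 genes are shown with G and C in capitals, chosen as genes that untreated replicate 2 set apart from the other 3 libraries; each is the first stretch within 1 coding exon whose GC share is nearest to that of the gene's coding sequence. The first pair was lowest in that library and the second pair highest. They are from GENCODE vM21 on mm10, at chr17:22373704-22373763 on the plus strand, chr13:62171271-62171330 on the plus strand, chr1:74782102-74782161 on the plus strand and chr3:95995579-95995638 on the minus strand.
Zfp758: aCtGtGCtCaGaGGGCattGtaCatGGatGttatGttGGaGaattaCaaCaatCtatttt
Zfp808: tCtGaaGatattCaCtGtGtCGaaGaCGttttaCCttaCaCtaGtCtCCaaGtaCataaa
Wnt6: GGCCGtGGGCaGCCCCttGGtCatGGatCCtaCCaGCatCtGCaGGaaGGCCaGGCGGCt
Plekho1: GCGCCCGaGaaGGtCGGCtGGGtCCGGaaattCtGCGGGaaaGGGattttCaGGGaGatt
The GC share of the whole coding sequence is 35.9% for Zfp758, 35.9% for Zfp808, 65.9% for Wnt6 and 58.6% for Plekho1.

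The zinc finger gene Zfp758 stood at 43.6 and 6.66 in untreated replicates 1 and 2, and at 70.8 and 54.2 with DMSO. Zfp808, another gene of this family of DNA-binding proteins, stood at 30.3 and 3.12 in untreated cells and at 35.2 and 21.1 with DMSO. In both, untreated replicate 2 was the low library and untreated replicate 1 lay near the DMSO libraries or between them. Wnt6, a secreted Wnt ligand, stood at 25.7 and 75.2 in untreated cells and at 22.2 and 20.3 with DMSO. Plekho1, a signalling adaptor, stood at 34.0 and 88.9 in untreated cells and at 33.0 and 32.9 with DMSO. In these GC-rich genes untreated replicate 2 was the high library. Of the 10 genes for which that library was lowest by the widest gap, 5 were Zfp genes, and the 306 Zfp genes that averaged 20 or more had a median log2 difference of DMSO from untreated replicate 2 of 0.32 and from untreated replicate 1 of 0.02.

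The widest gaps of untreated replicate 2 in abundant genes were in nuclear pseudogenes that copy mitochondrial genes. The table held no gene with a mitochondrial symbol, but 11 pseudogenes with a mean of at least 20 matched mitochondrially encoded transcripts at 92.3% to 100% identity, so a read from the mitochondrial RNA cannot be told apart from one of an identical copy. Of these, 7 lie next to each other on chromosome 1, from 24611535 to 24616197, and 5 of the 7 are identical to their source over their whole length. The first 60 bases of the copy of mt-Atp6, a subunit of the mitochondrial ATP synthase, are shown with the same stretch of its source, G and C in capitals, to show that the letters are the same and low in GC. Gm10925 lies at chr1:24614592-24614651 on the minus strand and mt-Atp6 at chrM:7927-7986 on the plus strand, both on mm10.
Gm10925: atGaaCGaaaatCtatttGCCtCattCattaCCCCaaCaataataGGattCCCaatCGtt
mt-Atp6: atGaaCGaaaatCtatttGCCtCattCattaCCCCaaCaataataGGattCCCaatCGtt
Gm10925 stood at 8917 and 449 in untreated cells, at 13651 and 7943 with DMSO; the LTK-14A libraries had 5499 and 7676. Gm28439, a copy of mt-Nd4 (a subunit of respiratory complex I) with a GC share of 34.6%, stood at 2089 and 169 in untreated cells and at 3207 and 2036 with DMSO. Gm29216, a copy of mt-Co1 (a subunit of cytochrome oxidase) with a GC share of 40.2%, stood at 14054 and 2326 in untreated cells and at 14964 and 12461 with DMSO. Untreated replicate 2 was the lowest of the 6 libraries in all 3. Over the 11 copies the median log2 difference of DMSO was 1.26 from both untreated libraries together, 2.53 from untreated replicate 2 and 0.15 from untreated replicate 1, and none of the 11 passed the threshold.

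The ribosomal RNA loci went the other way. Gm42418, a gene model of ribosomal RNA sequence, stood at 71065 and 130108 in untreated cells and at 64909 and 76000 with DMSO, and CT010467.1, which overlaps it on the opposite strand, at 3439 and 10706 and at 2853 and 3619. In both, untreated replicate 2 was the highest of the 4 libraries; CT010467.1 stood at 9962 and 10377 with LTK-14A. Malat1, a nuclear RNA, stood at 164718 and 131403 in untreated cells and at 171880 and 175240 with DMSO. The share of ribosomal RNA and the GC trend moved together in this 1 library, and the part of either in the results below was not tested.

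The 9 genes past the threshold were 8 gene models and the glutamate transporter gene Slc1a2. Slc1a2 (ENSMUSG00000005089, chromosome 2, 102658659 to 102790784) encodes the main glutamate transporter of brain astrocytes. It stood at 1.19 and 0 in untreated cells, at 49.3 and 42.8 with DMSO; the LTK-14A libraries had 64.8 and 62.7. Both untreated libraries were at or below 1 step, and all 4 others lay above 40. The log2 difference of DMSO from untreated was 4.99 (SE 0.48, adjusted p = 0.0358, limma). Its untreated values alone would not have passed the filter, so it was tested only because it was high with DMSO. The p-value does not allow for this. The other transporters of its family did not pass. Slc1a5, a glutamine carrier, stood at 1319 and 1130 in untreated cells and at 1026 and 1051 with DMSO, Slc1a3, another glutamate carrier, at 825 and 634 and at 744 and 792, and Slc1a4, a carrier of neutral amino acids, at 159 and 176 and at 141 and 159. Of 26 tested genes of glutamate and amino acid transport, 1 was called, Slc1a2 itself, and the median difference of the list was 0.04.

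Of the 8 gene models, 7 had 97.1% to 100% of their exon bases inside exons of a gene on the opposite strand. All 8 but Gm16567 were listed at 0 in both untreated libraries. They passed the filter through the DMSO libraries alone, so their direction was fixed in advance. Gm44170 (chromosome 6, 88503605 to 88504277), which lies within exons of the translocon gene Sec61a1, was listed at 0 in both untreated libraries and stood at 110 and 98.7 with DMSO (adjusted p = 0.00307) and at 64.1 and 73.8 with LTK-14A. Gm45507, opposite the mitophagy gene Bnip3, was at 0 in untreated cells and at 71.4 and 49.9 with DMSO (adjusted p = 0.0109). Gm29331, opposite the adenylyl cyclase gene Adcy6, was at 0 in untreated cells and at 41.3 and 64.7 with DMSO (adjusted p = 0.0136). In each of these 3 the LTK-14A libraries lay near the DMSO libraries, between 47.4 and 73.8.

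Gm16567, opposite the complement protease gene C1s1, and Gm20536, opposite the Golgi protein gene Tgoln1, did not share that pattern with LTK-14A. Gm16567 stood at 1.13 and 1.01 in untreated cells, at 85.3 and 79.3 with DMSO, but at only 1.28 and 2.47 with LTK-14A (DMSO against untreated, log2 difference 5.33, SE 0.51, adjusted p = 0.0358). Gm20536 was at 0 in both untreated and both LTK-14A libraries and at 37.5 and 32.7 with DMSO (adjusted p = 0.0487). In these 2 the DMSO libraries stood alone among the 6. Gm26723 was at 0 in untreated cells and at 27.1 and 23.7 with DMSO (adjusted p = 0.0444), and Gm14233, opposite the ubiquitin ligase gene Rnf24, at 0 and at 29.1 and 20.5 (adjusted p = 0.0487). Gm20538 (chromosome 19, 44543722 to 44552831) has no opposite-strand exon but overlaps the respiratory chain gene Ndufb8 on its own strand; it was at 0 in untreated cells, at 57.1 and 48.4 with DMSO (adjusted p = 0.0193), and lower, at 21.9 and 14.0, with LTK-14A. The calls rest on the whole set of 6 libraries: the count of genes past the threshold was 0 without untreated replicate 1, untreated replicate 2, DMSO replicate 1 or either LTK-14A replicate, and 0 when only the 2 groups were fitted, where 1182 genes had an unadjusted p under 0.05. In each of these fits, and without DMSO replicate 2, all 9 kept their direction. With untreated values at or near 0 that direction could hardly have changed, so this lends the calls no support.

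**Figure D3:**
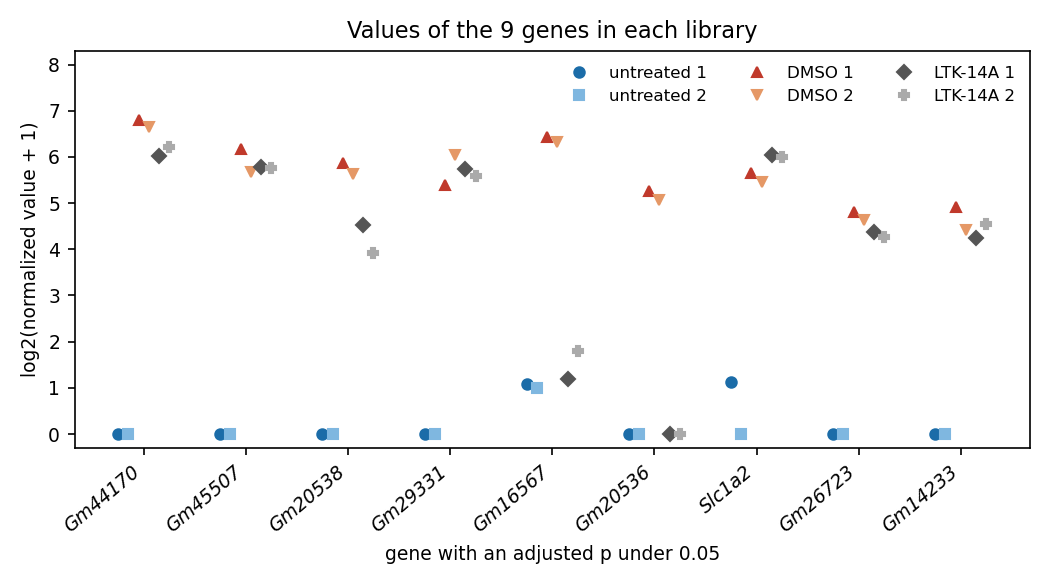
log2(normalized value + 1) of the 9 genes past the threshold (horizontal axis) in each of the 6 libraries (1 symbol a library). All 9 lie at or near 0 in both untreated libraries and above 4 on this scale in both DMSO libraries; Gm16567 and Gm20536 are low again in both LTK-14A libraries.

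Because the kit marks strand but the sources used here do not say whether counting used it, the values of these gene models are uncertain. As examples, the first 30 bases of Gm16567 and of Gm45507 that lie in a coding exon of the partner are given. The partner's own letters stand under each, and each pair is the same stretch of the genome read in the 2 directions. Of the exon bases of Gm16567, 406 of 576 lie opposite coding exons of C1s1, and of those of Gm45507, 162 of 519 opposite coding exons of Bnip3. Gm44170, Gm29331 and Gm14233 have 0 bases opposite coding exons and lie opposite untranslated exons of their partners. Gm16567 and C1s1 are at chr6:124530947-124530976, on the plus and the minus strand, and Gm45507 and Bnip3 at chr7:138894417-138894446, also plus and minus, on mm10.
Gm16567: gtccttcctgggcccactattctcctgcat
C1s1: atgcaggagaatagtgggcccaggaaggac
Gm45507: atggaaggaaaaccttcagaaagtctgctg
Bnip3: cagcagactttctgaaggttttccttccat
The partners themselves did not pass the threshold. C1s1 stood at 1043 and 1026 in untreated cells and at 1057 and 1090 with DMSO, Sec61a1 at 1611 and 1499 and at 1518 and 1397, and Bnip3 at 955 and 646 and at 688 and 590. In 29 antisense models with at least 95% of their exon bases opposite a gene with a value of at least 200 in each of the 4 libraries, the summed antisense value was 3.40% and 2.41% of the summed partners in untreated cells, 4.95% and 5.16% with DMSO and 3.98% and 3.74% with LTK-14A. Of these 29, 4 were called, 6 had both DMSO libraries above both untreated libraries, 3 had both below and 20 overlapped. Over all tested genes 0.0394% were called, 16.9% lay higher in this way and 18.1% lower. Over all antisense models with a mean of at least 20, 24.6% lay higher and 10.2% lower. Without the 4 called models, which were picked for being high with DMSO, the shares were 4.57% and 3.15% in untreated cells and 4.42% and 4.79% with DMSO, so untreated replicate 1 lay between the DMSO libraries.

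The adipocyte and fibroblast genes of a panel of 24 did not pass the threshold, and for 22 of the 24 the 95% interval of the difference lay within 2-fold. In such bulk samples, fewer fat cells and less RNA per fat cell cannot be told apart. Pparg, the nuclear receptor that drives adipocyte formation, stood at 1696 and 1291 in untreated cells and at 1470 and 1545 with DMSO, with an interval of -0.32 to 0.37 on the log2 scale. Cebpa, its partner factor, stood at 2656 and 3382 and at 2241 and 2149, and its interval was -0.80 to -0.10 (adjusted p = 0.757, limma). Fabp4, a fatty acid carrier, stood at 18020 and 11422 and at 15793 and 14908, with an interval of -0.40 to 0.59. For Pparg and Fabp4 the DMSO libraries lay between the 2 untreated libraries, and for Cebpa both lay below. The 2 genes whose interval was wider than 2-fold were Lep and Col1a1. Lep, the hormone leptin, stood at 212 and 213 in untreated cells and at 171 and 170 with DMSO, and its interval of -1.91 to 1.27 was taken from 1 spread over the 3 groups, in which the LTK-14A libraries were at 0 and 4.58. Col1a1, the main fibrillar collagen, stood at 20565 and 39648 in untreated cells and at 19423 and 22248 with DMSO, with untreated replicate 2 alone high. Of the 24 genes, 9 had both DMSO libraries below both untreated libraries and 0 had both above, beside 19.8% and 14.8% of genes averaging 20 or more. Without untreated replicate 1 or without untreated replicate 2 in turn, the differences of Pparg, Fabp4, Cd36, Lpl, Adipoq and Scd1 changed sign with the library that was kept.

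Energy metabolism genes lay slightly lower with DMSO, against each untreated library taken alone, and so did some lists of other functions. The median of 25 ER folding and stress genes was -0.11 from untreated replicate 1 and -0.20 from untreated replicate 2. For 29 proteasome genes these medians were -0.10 and -0.30. The lower position was thus not particular to energy metabolism. Lists with medians near or above 0 are given below. No gene of the lists on metabolism, matrix, immune response and noncoding RNA given here passed an adjusted p of 0.05, and the medians are beside a median of -0.01 over all tested genes and -0.02 over those with a mean of at least 20. Among 20 glycolysis genes the median log2 difference was -0.30, at -0.23 from untreated replicate 1 and -0.33 from untreated replicate 2, and 15 of the 20 had both DMSO libraries below both untreated libraries, where 19.8% of genes with a mean of at least 20 did so. Pfkl, a phosphofructokinase that commits sugar to glycolysis, stood at 1865 and 2787 in untreated cells and at 1454 and 1451 with DMSO (log2 difference -0.65, 95% interval -1.07 to -0.23). Aldoa, an aldolase, stood at 12498 and 14195 and at 9338 and 10462, Tpi1, triose phosphate isomerase, at 3753 and 4259 and at 3137 and 3072, and Gpi1, glucose phosphate isomerase, at 2337 and 2410 and at 1780 and 1930. In all 4 the groups did not overlap; the differences of the last 3 were -0.43, -0.36 and -0.36. Pgam1, Eno2, Slc2a1, Pfkfb4 and Slc16a3 were the 5 of the list whose groups overlapped. The median GC content of these 20 genes was 53.7%, a range in which DMSO also lay below untreated replicate 2 over protein-coding genes at large, by a median of -0.24, but below untreated replicate 1 by only -0.04. In that range 32.2% of the protein-coding genes averaging 20 or more had both DMSO libraries below both untreated libraries. Among all tested genes with a mean of at least 1000 it was 28.2%.

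The other mitochondrial and lipid lists were alike in direction and smaller. Among genes with a mean of at least 20, 19.8% had both DMSO libraries below both untreated libraries and 14.8% had both above. The median GC content of each list given here fell in a range where 18.8% to 32.2% of such protein-coding genes lay lower. The median difference was -0.15 for 50 genes of oxidative phosphorylation, with 25 of the 50 lower in both DMSO libraries and 0 higher. Cox4i1, a cytochrome oxidase subunit, stood at 1649 and 1874 in untreated cells and at 1218 and 1414 with DMSO. It was -0.14 for 24 genes of the TCA cycle (13 lower, 0 higher), among them Cs, citrate synthase, at 3699 and 3533 and at 3028 and 3053. It was -0.18 for 31 genes of fatty acid and triglyceride synthesis (18 lower, 1 higher): Acly, which makes cytosolic acetyl-CoA from citrate, stood at 1634 and 1826 and at 1256 and 1381, and Fasn, the fatty acid synthase, at 20233 and 20670 and at 15108 and 17052. For 31 genes of fatty acid oxidation and peroxisomes it was -0.16 (14 lower, 1 higher), for 17 of lipolysis and lipid droplets -0.23 (9 lower, 0 higher) and for 38 markers of mature adipocytes -0.14 (19 lower, 2 higher). Sulphur and sulphoxide metabolism, the list nearest to the chemistry of DMSO, had a median of -0.26 over 24 genes (13 lower, 3 higher); Msrb1, a methionine sulphoxide reductase, stood at 199 and 236 in untreated cells and at 134 and 169 with DMSO. These medians kept their sign under each of the scalings and with each untreated or DMSO library left out. With a correction for GC content, chosen after the data were seen, that of glycolysis was -0.21, that of oxidative phosphorylation -0.13 and that of sulphur metabolism -0.23, while those of mature adipocyte markers, fatty acid and triglyceride synthesis, and lipolysis and lipid droplets shrank to -0.06, -0.09 and -0.11. Under quantile normalization the medians of mature adipocyte markers, fatty acid and triglyceride synthesis and the TCA cycle were -0.08, -0.10 and -0.09.

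Some other lists lay at different distances from the 2 untreated libraries. Collagen and matrix genes had a median of -0.17 over 49 genes, but 0.02 from untreated replicate 1 and -0.38 from untreated replicate 2. Ribosomal protein genes had -0.19 over 48 genes, -0.07 from untreated replicate 1 and -0.34 from untreated replicate 2, and smooth muscle and cytoskeleton genes 0.08 and -0.24. Cholesterol synthesis was the reverse case, with -0.33 from untreated replicate 1 and -0.01 from untreated replicate 2 over 26 genes, though single members lay lower than both: Fdps, farnesyl diphosphate synthase, stood at 178 and 191 in untreated cells and at 109 and 131 with DMSO. Interferon response genes had -0.48 from untreated replicate 1 and -0.10 from untreated replicate 2 over 41 genes, and the 2 DMSO libraries differed by a median of 0.32. Tap1, a peptide transporter of antigen presentation, stood at 486 and 497 in untreated cells and at 264 and 358 with DMSO, and Ifi35 at 456 and 454 and at 283 and 303; both pairs of groups were apart. Insulin signalling, glucocorticoid target, circadian and DNA methylation lists had medians of -0.01, 0.02, 0.00 and 0.02. Glucocorticoid targets had 3 of 22 genes higher in both DMSO libraries and 3 lower (13.6% each), beside 16.9% and 18.1% of all tested genes.

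**Figure D4:**
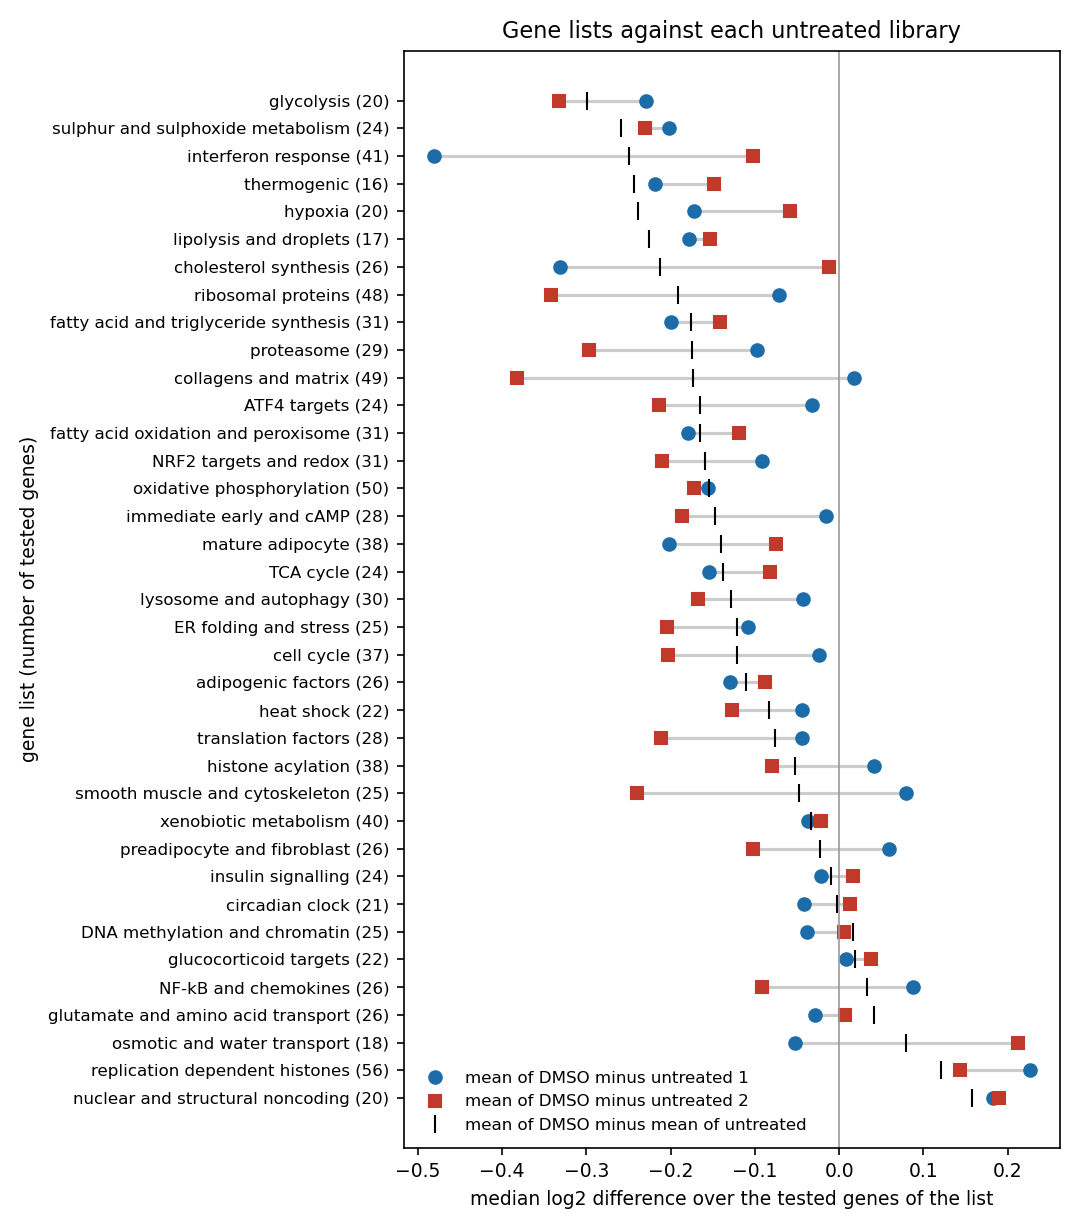
Median log2 difference (horizontal axis) over the tested genes of each list (vertical axis, number of genes in brackets) between the mean of the DMSO libraries and untreated replicate 1 (circle), untreated replicate 2 (square) or the mean of both (bar). Glycolysis lies at -0.23 and -0.33 against the 2 untreated libraries, while collagens lie at 0.02 and -0.38 and interferon response genes at -0.48 and -0.10.

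Few lists had a median above 0.1. The counts below are beside 16.9% of all tested genes with both DMSO libraries above both untreated libraries and 18.1% with both below. Among genes with a mean of at least 20 these shares were 14.8% and 19.8%. Nuclear and structural noncoding RNAs had a median of 0.16 over 20 tested genes (0.18 from untreated replicate 1 and 0.19 from untreated replicate 2) and one of 0.09 after the GC correction. Of the 20, 3 (Rmrp, Meg3 and Miat) were at 0 in both untreated libraries, passed the filter only through DMSO and thus had to lie higher. Of the 14 with a mean of at least 20, 7 had both DMSO libraries above both untreated libraries and 1 had both below; Rmrp is among the 7, as its mean is over 20. Among abundant ones Neat1, a scaffold of nuclear paraspeckles, stood at 20832 and 22791 in untreated cells and at 23478 and 25733 with DMSO, and Kcnq1ot1, an imprinted antisense RNA, at 2639 and 1779 and at 3144 and 2834. Rmrp, the RNA of a mitochondrial and ribosomal processing enzyme, was listed at 0 in both untreated libraries and stood at 6113 and 8.47 with DMSO, where the libraries differed widely; those of LTK-14A had 7197 and 6401. Replication-dependent histone genes had a median of 0.12 over 56 genes, 14 higher and 5 lower (0.24 after the GC correction), for example Hist1h4d at 286 and 273 in untreated cells and at 351 and 352 with DMSO. In the NF-κB and chemokine list, 9 of 26 genes lay higher in both DMSO libraries and 4 lower, but the median of 0.03 was 0.09 from untreated replicate 1 and -0.09 from untreated replicate 2; Ccl2, a chemokine that attracts monocytes, stood at 569 and 436 and at 672 and 739. Osmotic and water transport genes had a median of 0.08 over 18 genes, but -0.05 from untreated replicate 1 and 0.21 from untreated replicate 2.

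Among single genes whose higher group averaged 20 or more and whose groups did not overlap, those with the smallest p were larger in size upward than downward. The sizes are not at like levels: untreated means were at most 47.8 (Unc13a) in the 10 upward genes and at least 99.0 (Mthfd1l) in the 10 downward ones. Slc1a2, Meg3 and BC023719 passed the filter only with the DMSO libraries. After Slc1a2, the named genes higher with DMSO were led by Meg3, an imprinted noncoding RNA, at 0 in both untreated libraries and 35.3 and 21.4 with DMSO (adjusted p = 0.184, limma), and Shc4, a signalling adaptor, at 6.18 and 6.06 and at 44.6 and 49.4 (log2 difference 2.75, SE 0.39, adjusted p = 0.184). BC023719 and Cox20, with 94.6% and 91.1% of their exon bases opposite H2-T10 and Hnrnpu, stood at 3.89 and 0 against 60.5 and 69.4, and at 1.24 and 3.23 against 38.9 and 30.6. Their strand is thus as uncertain as that of the gene models. Unc13a, which primes synaptic vesicles, stood at 43.9 and 51.8 in untreated cells and at 101 and 101 with DMSO (log2 difference 1.07, SE 0.20, adjusted p = 0.648).

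Downward the largest differences among these 10 were near 2-fold. Sema3g, a secreted semaphorin, stood at 486 and 460 in untreated cells and at 207 and 260 with DMSO (log2 difference -1.03, SE 0.19, adjusted p = 0.610, limma). Mthfd1l, an enzyme of mitochondrial folate metabolism, stood at 76.2 and 122 and at 49.1 and 41.5, and Col5a3, a minor fibrillar collagen, at 1427 and 2017 and at 983 and 983. Pgm2, a phosphoglucomutase, stood at 969 and 1084 in untreated cells and at 684 and 729 with DMSO. The untreated and DMSO libraries were apart in all 4, with values of -1.08, -0.79 and -0.54 for the last 3. The other 6, Tap1, Ifi35, Psme2b, Plod1, Elp5 and H2afj, had differences of -0.68 to -0.45 and adjusted p-values of 0.757.

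Several genes typical of neurons were listed at low values in the DMSO libraries and at 0 in the untreated ones. This list of 28 genes was drawn up after several of them had been seen among the named genes, so it has no test. Of the 28, 22 passed the filter on low values, 11 were above 1 in both DMSO libraries and at 0 in both untreated libraries, and 0 had the reverse pattern; a gene that passed through the DMSO libraries alone had to differ. In the whole table, 365 genes were above 1 in both DMSO libraries and at 0 in both untreated libraries, and 438 genes the reverse. Snap25, a protein of synaptic vesicle fusion, stood at 25.5 and 13.4 in untreated cells, at 69.9 and 57.6 with DMSO; the LTK-14A libraries had 21.6 and 27.5. Camk2a, a kinase of excitatory synapses, stood at 19.4 and 24.8, at 53.9 and 56.4, and at 56.3 and 45.3. Grin2b, a glutamate receptor subunit, was at 0 in both untreated libraries, at 11.5 and 8.01 with DMSO; the LTK-14A libraries had 18.0 and 13.7. In these 3 every DMSO value lay above every untreated value. In a wider list of 60 synaptic and neuronal genes, 50 were tested. Of these, 27 had both DMSO libraries above both untreated libraries and 5 had both below, beside 16.9% and 18.1% of all tested genes. Of the 60, 12 were above 1 in both DMSO libraries and at 0 in both untreated libraries, so they had to lie higher. The abundant members did not share this: of the 20 with a mean of at least 20, 5 lay higher in this way and 4 lower. Over all genes with such a mean the shares were 14.8% and 19.8%. Rab3a, a GTPase of synaptic vesicles, stood at 188 and 151 in untreated cells and at 121 and 147 with DMSO, and Unc13b, a relative of Unc13a, at 71.3 and 71.2 and at 44.9 and 54.7. Mbp, a myelin protein, stood at 4.02 and 5.84 in untreated cells and at 17.1 and 19.1 with DMSO. Most genes of its list did not share this: of 8 tested genes typical of oligodendrocytes, 2 lay higher in this way, Mbp included, and 4 lower. The shares over all tested genes were again 16.9% and 18.1%. Xist, which coats the inactive X chromosome, stood at 7.73 and 3.15 in untreated cells and at 26.8 and 16.4 with DMSO.

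Many of these values are a few steps, and the DMSO libraries have the larger step. Rbfox3, a nuclear protein of neurons, stood at 4.12 and 2.26 with DMSO, and Elavl4, an RNA-binding protein of neurons, at 2.15 and 2.26; both were at 0 in the 2 untreated and the 2 LTK-14A libraries. The summed value of the 28 genes was 758 and 922 in untreated cells and 1036 and 993 with DMSO, most of it from Thy1 and Eno2, which fibroblasts and many other cells also express and whose groups overlapped. Lists for liver, heart, kidney, male germ cells, blood and pancreas, also drawn up afterwards, had 2 to 5 tested genes each, too few to set beside the 22 neuronal genes; 1 liver and 1 blood gene were present in both DMSO libraries and at 0 in both untreated ones, and 2 heart genes, 1 liver gene and 1 pancreas gene the reverse. The part of the step size in these low values was not tested.

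**Figure D5:**
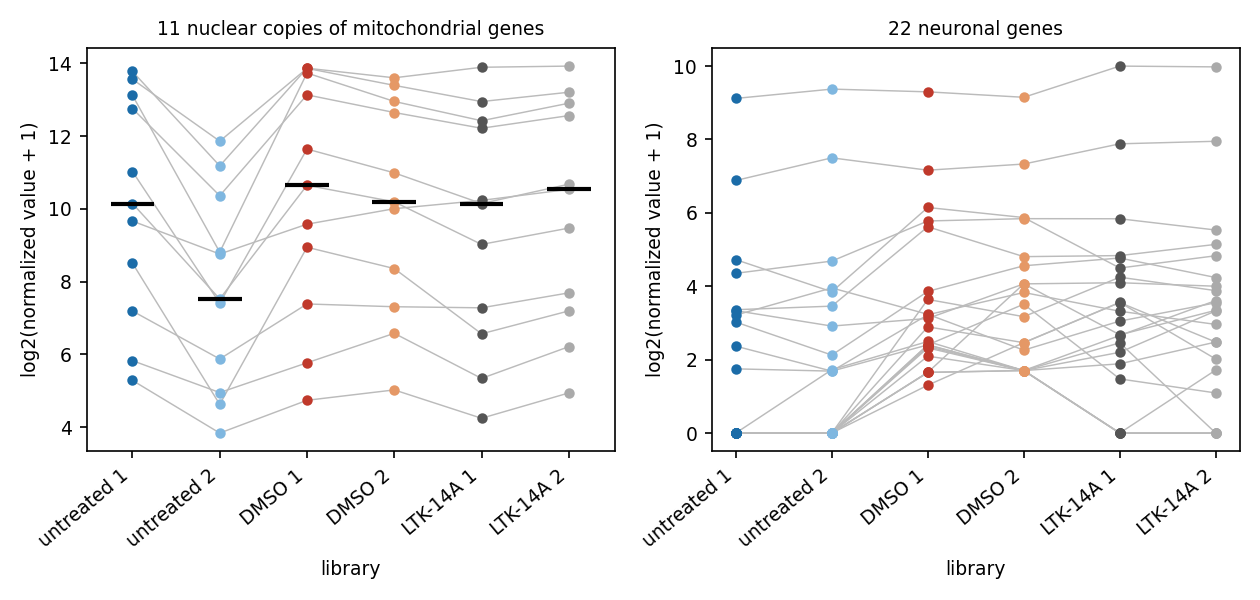
log2(normalized value + 1) (vertical axis) in each library (horizontal axis) of the 11 nuclear copies of mitochondrial genes (left, each point a gene, lines join a gene, bars are medians) and of the 22 neuronal genes that passed the filter (right). Every copy is lowest in untreated replicate 2, and 11 of the 22 neuronal genes are at 0 in both untreated libraries.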

How the data were processed

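RNA of 3T3L1 cells was isolated with Trizol and treated with DNase, and libraries were made with the KAPA Stranded RNA-Seq Kit with RiboErase, per the labels' protocols. The authors deposited 1 table with 1 value per gene and library on a log10 scale, taken here as log10 of log2 of a normalized read count because undoing both logarithms gave regular low values; a deposited 0 was kept as 0. Per the submitters' processing notes, reads were placed on mm10; aligner, counter, normalization and strand setting: not given in the sources used here. Of the low values, 23.3% to 28.6% fell on a whole step (tolerance 0.01), so reads were not recovered and no count test was run. The depth in reads is unknown, so no counting intervals are given.

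Genes that reached 1 in 2 or more of the 4 libraries were tested on log2(value + 1) with limma 3.58.1 in R 4.3.3, with a variance trend, 3 group means over the 6 libraries and Benjamini-Hochberg adjustment at 0.05; such differences understate the change of low genes. GC content, overlaps and sequences come from GENCODE vM21 on mm10, which held 53237 of the 53342 identifiers; copies of mitochondrial genes were found with BLAST 2.17.0. Named genes are those past the threshold, a panel of 24, the 10 with the smallest p in each direction whose higher group averaged 20 or more and whose groups do not overlap, 2 to 4 members of each list, the 10 in each direction that set untreated replicate 2 apart, and the ribosomal RNA loci; gene models, small RNA genes and pseudogenes were passed over outside the first set. Genes given besides these (partners, copies, the SLC1 family and neuronal genes) were chosen after their values were seen. Alternatives were quantile normalization, scaling with ribosomal and small RNA loci left out, a pseudocount of 0.1, no filter or a mean of at least 20, no variance trend, the 2 groups alone, the replicate block, each library left out and, added later, a GC correction. The members and lists were chosen with earlier results of these data known. The opposite-strand partner of 1 gene model is not reported here.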

Additional observations from a re-analysis of the deposited data

How the results depend on the processing

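The number of genes past the threshold, 9 in the main fit, was 4 with a pseudocount of 0.1 and 0 with only the 2 groups fitted, and ranged from 0 to 1 when 1 library was left out. With the replicate block it was 5; the labels share only a number between groups, and same-numbered libraries deviated together at correlations of 0.17, -0.02 and 0.05, so the numbers were not taken as pairs. It was 9 under quantile normalization, the scaling without ribosomal and small RNA loci, no filter and the GC correction, and 8 with no variance trend. With a mean of at least 20 it was also 8, of which 6 were among the 9. Gm14233, Gm20536 and Gm26723 have means below 20 and were not tested there. The number of genes with an interval inside 2-fold ran from 7149 to 10913 over these settings. Of 52 named genes, 38 kept their direction in every setting. The 9 past the threshold are among the 38, and their direction could hardly change, as their untreated values are at or near 0. With all libraries kept, 7 reversed: Adipoq to 0.055 under quantile normalization and 0.011 under the scaling, Cidec to 0.027 under quantile normalization and 0.11 under the GC correction, Pnpla2 to 0.015 and 0.0082 under the first 2 and 0.13 under the third, Scd1 to 0.34 under quantile normalization, and Fabp4, Lpl and Cd36 to -0.061, -0.062 and -0.23 under the GC correction. With 1 library left out, log2 differences that reversed ran from -0.22 to 0.34 for Acta2, -0.26 to 0.20 for Adipoq, -0.28 to 0.43 for Cd36, -0.26 to 0.39 for Cebpd, -0.17 to 0.083 for Cidec, -0.93 to 0.016 for Col1a1, -0.52 to 0.056 for Dlk1, -0.23 to 0.43 for Fabp4, -0.17 to 0.31 for Lpl, -0.10 to 0.029 for Pnpla2, -0.17 to 0.22 for Pparg, -0.24 to 0.71 for Ppargc1a, -0.14 to 0.047 for Retn and -0.38 to 0.29 for Scd1. The cause was not tested. Values below a mean of 20 limit what these libraries can show.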

Other observations

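Noncoding gene classes differed in how far their DMSO libraries lay from each untreated library. The 411 gene models of the class TEC with a mean of at least 20, which await experimental support, had a median log2 difference of 0.27, at 0.09 from untreated replicate 1 and 0.43 from untreated replicate 2, and 33.6% of them had both DMSO libraries above both untreated libraries, beside 14.8% of all genes averaging 20 or more. The 208 long intergenic noncoding RNAs had a median of 0.13, which was -0.01 from untreated replicate 1 and 0.22 from untreated replicate 2. The median of the 10949 protein-coding genes was -0.04.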
